A study of Mus musculus with 12 samples.

Results

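The P11 and P10 sub-populations of the ML23 leukemia line were compared across all genes that reached a set level in them. ML23 is a mouse line of AML-like cells, made from cells of rtTA transgenic mice (Jax strain 6965) with lentiviruses that overexpress *Meis1*, *HoxA9* and *HoxB5*, and passaged in C57BL/6 hosts. All cells compared here carry these factors and the reporter ZsGreen, were harvested from 3 diseased mice and were sorted as ZsGreen+, so no normal cells stand beside them. P11 was gated as CD9- cKit+ Mac1- CD48+ and P10 as CD9- cKit+ Mac1+ CD48+, so that the gates differ in Mac1 alone. Of the 2 other gates, P12 was CD9- cKit- Mac1- CD48+ and P9 was CD9+ cKit+ Mac1+ CD48-. ML23 is a single line, each library was made from 100 sorted cells, and no label ties a library to a mouse. P-values therefore measure only the spread between these libraries, which may be technical in part. mRNA was measured in 3 libraries of each gate, and genes at 1 CPM or more (the alignments of a gene scaled to those of its library) in at least 3 of the 6 P11 and P10 libraries were compared. They numbered 12594 of the 20202 genes in the table. Just inside this limit *Lrig1* reached 1.005 CPM in 3 libraries, and just outside it *Adamts3* reached 0.995.

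Myeloid cells arise from stem cells by way of progenitors, many of which carry CD34 and the receptor cKit and divide often. On the way to granulocytes, progenitors first make the proteases and the myeloperoxidase of the primary granules, and later the lactoferrin, cathelicidin and gelatinase of the secondary and tertiary granules. On the way to monocytes and macrophages they gain the receptor of colony-stimulating factor 1, chemokine receptors, Fc receptors, Toll-like receptors, scavenger receptors and lysosomal enzymes. Mac1, the stain that separates the gates, is the integrin of CD11b and CD18, which binds complement and adhesion ligands and is carried by monocytes, macrophages and neutrophils. In AML a stem-like compartment is held to feed more mature leukemic cells, and the study treats P11 as that compartment. In its transplants only mice given P11 cells developed the disease, and cells of the other gates arose in them.

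The totals of alignments were estimated from the spacing of low CPM values. They came to 17764198 to 21307424 for the 6 libraries, at which 1 CPM is at least 17.8 alignments. The paper reports fewer reads per sample than these estimates. No pair of libraries held identical values. Over the genes tested, the root mean square difference of log2(CPM + 0.5) was 0.31 to 0.59 between libraries of the same gate and 0.93 to 1.03 between a P11 and a P10 library. Replicate 3 lay apart in both gates. In P10, 324 genes (2.57%) were over 2-fold above both other libraries in replicate 3 and 261 were over 2-fold below both, and in P11 the counts were 147 and 173. The counts of called genes in the gene lists that follow are also given without P10 replicate 3, or without replicate 3 of both gates, where they moved by more than 2 genes or by over 1.5 times. The other counts of the lists moved by 2 genes or fewer. Counts of lincRNA and antisense genes were made in the main fit only.

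Of the 12594 genes, 1702 (13.5%) were higher and 981 (7.79%) were lower in P11 than in P10, at an adjusted p under 0.1 and more than 2-fold. Calls came from limma on log2(CPM + 0.5) with Benjamini-Hochberg adjustment, and folds on this scale understate the change of genes at low levels. In total 21.3% of the genes were called, and 7533 genes had an unadjusted p under 0.05. The genes lower in P11 moved further. At a difference of more than 2 on the log2 scale (4-fold) 111 genes were higher and 296 were lower, and at more than 3 (8-fold) 5 were higher and 89 lower. Past a difference of 4 (16-fold) no gene was higher and 20 were lower. For 6610 genes (52.5%) the 95% interval of the difference lay within 2-fold in both directions. All 3 P11 libraries lay above all 3 P10 libraries in 42.8% of the genes and below them in 19.5%. The median difference over all genes was 0.26. After libraries were rescaled by their median ratios over genes at 10 CPM or more it was 0.06, a shift of -0.20. The rescaled libraries gave 1117 genes higher and 1275 lower, so that 46.7% of the calls were higher against 63.4% without rescaling. The balance between the directions thus turned with the scaling, and the direction of a gene near a 2-fold difference should be read against that shift.

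**Figure D1:**
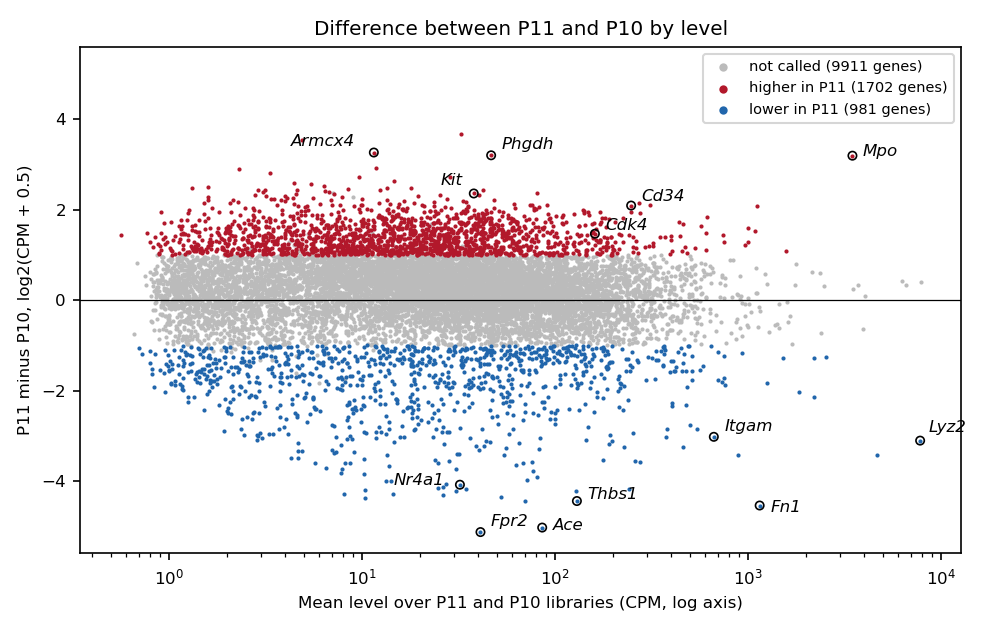
Difference between P11 and P10 on the log2(CPM + 0.5) scale (vertical axis) against the mean level over the 6 libraries in CPM (horizontal log axis), with 1 point per gene tested, red for the 1702 genes higher in P11, blue for the 981 lower and grey for the others. The blue points reach below -5 (*Fpr2*, *Ace*), whereas no red point lies above 4.

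The genes of the stained proteins were examined first, because the sort fixes them in part. *Itgam*, which encodes CD11b and lies on chromosome 7 from 128062640 to 128118491 of mm10, was at 124, 134 and 183 CPM in P11 and 1108, 1114 and 1329.8 in P10. Every P11 library was far below every P10 library, and the difference was -3.02 (standard error 0.15, adjusted p = 8.5e-06 from limma). *Itgb2*, which encodes the CD18 chain of the same integrin, was lower too (-1.87). Both encode the protein that the gates used, so that they are a check of the sort and not a finding. The gates did not differ in cKit, yet *Kit* was at 54.8, 45.3 and 89.5 CPM in P11 and 8.44, 8.07 and 21.5 in P10. The groups did not overlap, and the difference was 2.36 (standard error 0.39, adjusted p = 0.0013 from limma). *Cd48* was at 75.7, 69.6 and 74.3 CPM in P11 and 103, 97.4 and 96.3 in P10, a difference of -0.43 (95% interval -0.62 to -0.24), and *Cd9* was under 9 CPM in all 6 libraries. Of the factors used to make ML23, *Meis1* was at 756, 819 and 820.2 CPM in P11 and 481, 554 and 404 in P10, with a difference of 0.75 (95% interval 0.46 to 1.03) that did not pass the 2-fold limit. *Hoxa9* was at 10.9, 7.77 and 5.37 CPM in P11 and 1.81, 1.69 and 1.29 in P10 and was called higher (1.98, adjusted p = 0.00064 from limma). Transcripts of the lentiviruses were not told apart from those of the mouse genes here. *Hoxb5* was not analysed here.

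Besides the genes of the sort and of ML23, the text names the largest differences and, of every list, up to 5 members ranked by adjusted p. Other genes, such as those without a call, were added after their values were seen. The working names of the gates were checked against 6 stem and progenitor markers and 9 monocyte and macrophage markers. Of the stem and progenitor markers, *Cd34* (2.09), *Myb* (1.42), *Gata2* (1.83) and *Sox4* (2.57) were higher in P11, and *Flt3* and *Meis1* were not called. *Mecom*, which marks normal stem cells, was not analysed here, and *Hlf* and *Procr* lay under 0.5 CPM in all 6 libraries. *Ly6a*, the gene of the stem cell antigen Sca1, was lower in P11, at 1.27, 1.02 and 0.998 CPM against 2.91, 3.48 and 2.19 in P10. Among these transcripts the name stem-like thus rests on progenitor genes, whereas *Hlf*, *Procr* and *Ly6a* were low and *Mecom* was not analysed. *Adgrg1*, an adhesion receptor of stem cells outside these 6 markers, was higher in P11 (1.94). The paper names P11 leukemic stem cells on the ground of its transplants. Of the monocyte and macrophage markers, 7 were lower in P11, among them *Csf1r*, *Adgre1*, *Cx3cr1*, *Ccr2*, *Cd14* and *C1qa*. *Ly6c2* and *F13a1* were not called, and P11 was not free of monocyte transcripts, since *F13a1*, which encodes a subunit of coagulation factor XIII, was at 2019, 1912 and 1445 CPM there and 3238, 3183 and 2484 in P10. In bulk libraries fewer cells of a type and less RNA per cell cannot be told apart, which holds for every difference given here.

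The 15 protein-coding genes with the largest differences upwards, among those called at a mean of 10 CPM or more with no overlap between the gates, held enzymes, membrane proteins and receptors. *Armcx4*, an armadillo repeat gene on chromosome X from 134686519 to 134696757 of mm10, was at 21.2, 21.8 and 20.5 CPM in P11 and 1.37, 2.82 and 1.34 in P10. All P11 libraries were several-fold above P10, with a difference of 3.27 (standard error 0.25, adjusted p = 4e-05 from limma). *Phgdh*, the first enzyme of serine synthesis, was at 102, 75.6 and 74.1 CPM in P11 and 11.3, 13.6 and 3.95 in P10. Its 2 groups were far apart although P10 replicate 3 was the lowest library (3.20, standard error 0.39, adjusted p = 0.00028 from limma). *Mpo*, the myeloperoxidase of primary granules, was at 5149.8, 4608 and 9084 CPM in P11 and 516, 580.0 and 934 in P10. Replicate 3 was the highest library of both gates, and the difference was 3.20 (standard error 0.30, adjusted p = 8.6e-05 from limma). *Tfrc*, the transferrin receptor that brings iron into dividing cells, was at 79.3, 67.4 and 67.8 CPM in P11 and 11.9, 12.1 and 14.3 in P10, groups that were tight and well apart (2.44, standard error 0.12, adjusted p = 7.6e-06 from limma). *Cnn3*, an actin-binding calponin, was at 52.5, 50.3 and 47.9 CPM in P11 and 7.12, 6.96 and 7.56 in P10. Its standard error was 0.11 for a difference of 2.72. *Dctd*, which deaminates deoxycytidylate on the way to thymidylate (2.46), *B3gnt5*, a glycolipid glycosyltransferase (2.48), and *Car3*, a carbonic anhydrase (2.52), were among the other enzymes. *Ednra*, an endothelin receptor (2.73), *Celsr1*, an atypical cadherin (2.44), and *Kcnq5*, a potassium channel subunit (2.47), lie in the membrane. *Kit* (2.36), *Igfbp4*, which binds insulin-like growth factors (2.36), and the collagen gene *Col19a1* (2.63) were also among the 15. *Aff3*, a transcription elongation gene at a lower level, was at 13.1, 11.4 and 3.83 CPM in P11 and 0.219, 0.751 and 0 in P10 (3.54) and was named after its values were seen.

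In the other direction the 15 largest differences ran from -4.16 to -5.13 and were led by receptors and matrix genes. *Fpr2*, a formyl peptide receptor of phagocytes on chromosome 17 from 17887824 to 17893952 of mm10, was at 1.55, 1.69 and 2.24 CPM in P11 and 85.5, 82.9 and 72.8 in P10. It was close to the level set for a test in P11 and tight in P10 (-5.13, standard error 0.16, adjusted p = 2.2e-06 from limma). *Ace*, the angiotensin-converting enzyme, was at 5.36, 7.94 and 2.19 CPM in P11 and 155, 182 and 162 in P10. *Ace* was also at 6.92, 4.84 and 7.81 CPM in P12 and 8.94, 6.82 and 2.08 in P9, so that of the 4 gates P10 alone reached 100 CPM in any library. *Fn1*, the matrix protein fibronectin, was at 81.6, 81.1 and 120.0 CPM in P11 and 2452, 2507 and 1656 in P10. It was lowest in P10 replicate 3 and still many-fold above P11 there (-4.54, standard error 0.20, adjusted p = 4.5e-06 from limma). *Vcan* (-4.18), the proteoglycan versican, and *Thbs1* (-4.44), thrombospondin, are further matrix genes. *Msr1* (-4.35) is a scavenger receptor, *Cmklr1* (-4.30) the receptor of chemerin, and *Pla2g7* (-4.31) the hydrolase of platelet-activating factor. *C1qa*, *C1qb* and *C1qc*, the chains of complement C1q, lie side by side on chromosome 4 and had differences of -4.20, -4.21 and -4.30. *C1qa* was at 0.552, 0.225 and 0.597 CPM in P11 and 9.97, 12.2 and 38.4 in P10. Replicate 3 of P10 was the highest library, and replicates 1 and 2 were also above every P11 library. *Sirpb1c*, *Sirpb1a*, *Klra2* and *Ear2* belong to families of near-identical copies between which alignments can be split, so that their values are uncertain.

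**Figure D2:**
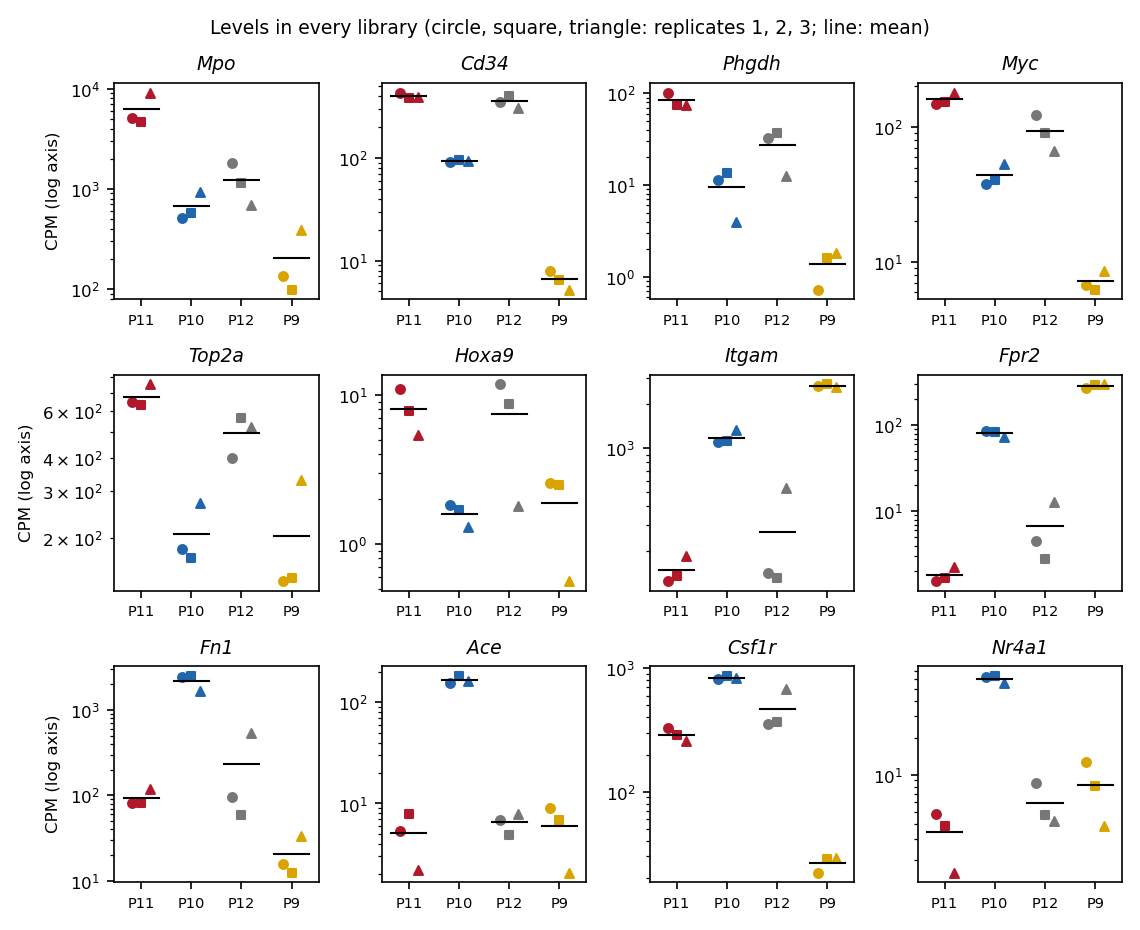
Levels of 12 genes in every library of the 4 gates in CPM (vertical log axis, with its own range for each gene), with circles, squares and triangles for replicates 1, 2 and 3 and a line at the mean. *Mpo*, *Cd34*, *Phgdh*, *Myc*, *Top2a* and *Hoxa9* are higher in P11 than in P10, and *Itgam*, *Fpr2*, *Fn1*, *Ace*, *Csf1r* and *Nr4a1* lower. *Ace* and *Nr4a1* are high in P10 alone.

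Promoters were read from RefSeq for the build GRCm38.p6 (mm10), and 9129 of the genes tested had an entry. In the 250 bases before the annotated start, on both strands, the core of the site of PU.1, GAGGAAG, was present in 21.1% of 712 genes lower in P11, in 9.89% of 1264 genes higher and in 13.1% of all. PU.1 is the ETS factor of myeloid cells, encoded by *Spi1*. The CCAAT box, CCAAT, was present in 36.1% of the lower, 46.7% of the higher and 41.1% of all genes, and the E-box CACGTG in 7.02%, 10.3% and 10.1%. These are shares of letters, with no test. The promoters of *Itgam*, which codes for the protein that separates the gates, and of *Mpo* are shown with the PU.1 core in capitals, because the former gene was lower and the latter higher although both hold it. *Itgam* is read from chr7:128062390-128062639 (+ strand) and *Mpo* from chr11:87793534-87793783 (+ strand).
*Itgam*: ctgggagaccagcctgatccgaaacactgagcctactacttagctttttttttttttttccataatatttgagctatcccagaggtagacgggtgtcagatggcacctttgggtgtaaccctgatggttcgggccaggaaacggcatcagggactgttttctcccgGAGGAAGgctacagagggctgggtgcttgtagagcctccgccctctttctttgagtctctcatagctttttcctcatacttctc
*Mpo*: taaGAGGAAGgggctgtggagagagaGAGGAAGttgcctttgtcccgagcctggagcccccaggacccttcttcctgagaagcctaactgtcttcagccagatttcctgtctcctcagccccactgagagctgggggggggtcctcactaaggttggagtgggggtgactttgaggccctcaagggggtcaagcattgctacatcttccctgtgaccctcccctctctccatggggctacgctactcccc
The promoters of *Phgdh*, at chr3:98339970-98340219 (- strand), and *Armcx4*, at chrX:134686269-134686518 (+ strand), are shown with the CCAAT box or its reverse complement in capitals, since these protein-coding genes had the largest differences upwards among those at a mean of 10 CPM or more in P11. All 4 are written 5′ to 3′ on the strand of the gene.
*Phgdh*: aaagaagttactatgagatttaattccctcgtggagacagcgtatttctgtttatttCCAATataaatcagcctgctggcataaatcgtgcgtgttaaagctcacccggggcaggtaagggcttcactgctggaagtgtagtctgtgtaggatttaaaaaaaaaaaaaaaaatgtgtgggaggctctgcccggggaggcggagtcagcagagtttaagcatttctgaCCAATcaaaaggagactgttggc
*Armcx4*: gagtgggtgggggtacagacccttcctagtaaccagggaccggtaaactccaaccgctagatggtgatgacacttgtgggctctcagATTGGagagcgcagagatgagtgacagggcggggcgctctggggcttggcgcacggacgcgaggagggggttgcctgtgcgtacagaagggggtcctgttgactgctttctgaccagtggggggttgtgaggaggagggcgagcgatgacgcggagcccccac
The capitals mark 1 stretch in *Itgam*, 2 in *Mpo*, 2 in *Phgdh* and 1 in *Armcx4*.

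Of the stem and progenitor list 17 of 30 genes were tested, of which 7 were higher, 1 lower and 9 not called, with a median difference of 0.77 against 0.26 for all genes. *Cd34*, a sialomucin of progenitors, was at 431, 383 and 392 CPM in P11 and 91.9, 95.2 and 94.3 in P10. Neither gate varied by much, and the difference was 2.09 (standard error 0.08, adjusted p = 3.6e-06 from limma). *Myb*, a factor that holds progenitors undifferentiated, was at 579, 623 and 749 CPM in P11 and 235, 235 and 254 in P10 (1.42). *Adgrg1*, an adhesion receptor of stem cells (1.94), and *Gata2* (1.83), *Sox4* (2.57) and *Erg* (1.31), transcription factors of progenitors, were higher, as was *Egfl7* (1.42), which was under 3 CPM. *Flt3*, the receptor of FLT3 ligand, was at 432, 386 and 136 CPM in P11 and 198, 214 and 65.7 in P10. Replicate 3 was the lowest library of both gates and the groups overlapped, so that the difference of 1.01 (95% interval -0.24 to 2.25) was not called. With the replicate number as a block *Flt3* was called at the same difference, and without P11 replicate 3 it was called at 1.53. *Lmo2* (0.13), *Lyl1* (-0.11), *Fli1* (0.02) and *Pbx3* (0.13), factors that stem cells share with later cells, had differences near 0.

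The primary granule genes lay mostly above 0, with 11 estimates above it and 1 below. Of 12 tested, 6 were higher and 1 was lower in P11, with a median difference of 1.02. Without P10 replicate 3, which was over 2-fold above both other P10 libraries in 6 of these genes, 8 were higher with a median of 1.25, and without replicate 3 of both gates 5 were higher. *Elane*, neutrophil elastase, was at 1329.6, 1256 and 2817 CPM in P11 and 287, 303 and 704 in P10, and P11 was higher although replicate 3 stood out in both gates (2.09, standard error 0.40, adjusted p = 0.003 from limma). *Ctsg*, cathepsin G, was at 799.9, 828 and 1265 CPM in P11 and 219, 269 and 303 in P10, with no overlap (1.85). *Prtn3*, proteinase 3 (1.09), the protease gene *Prss57* (1.5) and *Cst7*, an inhibitor of cathepsins (1.27), were higher with *Mpo*. *Prtn3* was no longer called without P11 replicate 3 or after rescaling. *Ctsc*, the peptidase that activates these proteases, was lower, at 117, 116 and 136 CPM in P11 and 335, 347 and 417 in P10 (-1.57). Its direction was thus opposite to that of its substrates. The summed level of the granule list was 8805, 8167 and 15552 CPM in P11 and 2084, 2276 and 3521 in P10.

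The monocyte and macrophage list was lower almost throughout, with 29 of 34 tested genes lower in P11, none higher and a median difference of -2.29. Besides the matrix and complement genes given above, *Csf1r*, the receptor of colony-stimulating factor 1, was at 328, 286 and 256 CPM in P11 and 825, 869.9 and 831 in P10, tight groups that were well apart (-1.54, standard error 0.11, adjusted p = 2.5e-05 from limma). *Emilin2*, a matrix glycoprotein, was at 162, 158 and 158 CPM in P11 and 769, 818 and 813 in P10, with a standard error of 0.08 for a difference of -2.33. *Tgfbi*, a matrix protein induced by TGF-beta (-3.55), *Clec4a1*, a C-type lectin receptor (-3.60), and *Lgals3*, galectin 3 (-2.37), were lower too. *Apoe* (-3.24), which carries lipids, *Mertk* (-3.15), which takes up dying cells, and *Trem2* (-2.26), a lipid receptor of macrophages, were lower as well. The 5 genes not called were *Ly6c2* (-0.34), *F13a1* (-0.73), *Cd68* (-0.34), *Ly86* (0.12) and *Cd163* (0.76), which were named after their values were seen. *Ly86*, which pairs with a Toll-like receptor relative, was at 136, 138 and 114 CPM in P11 and 117, 120.2 and 117 in P10 and overlapped. The summed level of the list was 7068, 7047 and 6714 CPM in P11, 17476, 18247 and 16882 in P10, 7715, 8314 and 13324 in P12 and 2768, 2754 and 2883 in P9. P10 was the highest of the 4 gates in every replicate.

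Genes of neutrophil maturation were also lower in P11, with 22 of 25 tested genes lower, none higher and a median difference of -2.50. *Mmp8*, neutrophil collagenase, was at 61.3, 70.5 and 41.6 CPM in P11 and 504, 538 and 306 in P10 (-2.94), without overlap. *Ifitm6* (-3.64), a membrane protein of myeloid cells, *Lyz2* (-3.11), lysozyme, and *Chil3* (-3.42), a chitinase-like protein, are also made by monocytes. *Csf3r*, the receptor of granulocyte colony-stimulating factor, was at 125, 117 and 166 CPM in P11 and 334, 339.9 and 322 in P10 (-1.30). Replicate 3 carried much of the signal of the secondary granule genes, which were named for this after their values were seen. *Ngp*, a neutrophil granule protein, was at 263, 491 and 4331 CPM in P10 and 45.9, 57.6 and 165 in P11. *Camp*, cathelicidin, was at 44.0, 79.1 and 945 CPM in P10 and 7.18, 8.61 and 65.1 in P11. *S100a8*, a calcium-binding protein of neutrophils, was at 109, 187 and 1767 CPM in P10 and 19.8, 26.6 and 173 in P11. The gates overlapped in *Camp* and *S100a8*, since P11 replicate 3 reached the range of P10 replicates 1 and 2, and both were called lower at adjusted p-values of 0.051 and 0.057 from limma. P10 replicate 3 was over 2-fold above both other P10 libraries in 14 of the 25 genes. Without it 20 of 25 genes were lower, with a median of -1.84, and without replicate 3 of both gates 23 were lower, with a median of -2.28. The list was at 3535, 3397 and 5438 CPM in P11, 27742, 28222 and 36760.3 in P10, 3165, 3273 and 10548 in P12 and 158143, 146244 and 152572 in P9. P10 was above P11 in every library and below P9 in every library. This sum includes genes that monocytes also make, such as *Lyz2* and *Chil3*, and their part in it was not examined. *Ngp* alone was at 45121, 35758 and 32932 CPM in P9, far above the P10 values given above. In P10 replicate 3, *Cd9* (8.45 against 1.26 and 1.60 CPM) and *Ly6g* (2.80, 3.33 and 9.01 over the P10 libraries), a surface antigen of neutrophils, were the highest of the P10 libraries too. Whether cells of another gate entered this library was not tested.

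**Figure D3:**
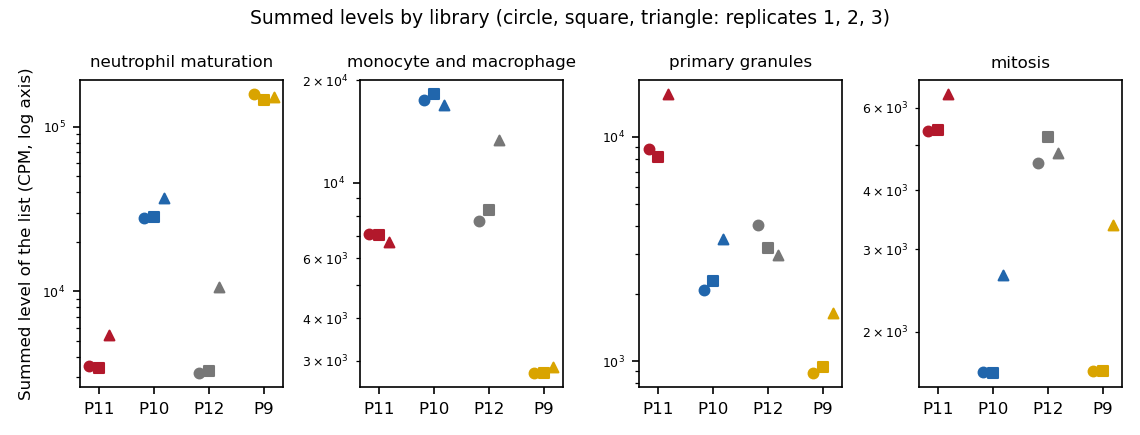
Summed levels of 4 gene lists in every library of the 4 gates in CPM (vertical log axes), with circles, squares and triangles for replicates 1, 2 and 3. The neutrophil maturation genes are highest in P9 and the monocyte and macrophage genes in P10, while the primary granule and mitosis lists are highest in P11.

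Receptors through which phagocytes meet microbes, antibodies and attractants were lower in P11. Of the pattern recognition list 16 of 25 tested genes were lower and none higher, with a median of -1.32. *Tlr8*, a sensor of RNA in endosomes, was at 12.6, 15.1 and 15.5 CPM in P11 and 108, 100.4 and 113 in P10, with a wide gap (-2.86, standard error 0.11, adjusted p = 3.9e-06 from limma). *Tlr7* (-2.49) and *Tlr13* (-2.98), which also sense RNA, and *Tlr2* (-1.70), which senses bacterial lipopeptides, were lower too. Of the chemoattractant receptors 14 of 20 were lower and none higher, with a median of -1.5, and 1 was higher without P10 replicate 3 or without replicate 3 of both gates. *C5ar1*, a receptor of complement C5a, was at 2.98, 1.97 and 2.24 CPM in P11 and 48.3, 55.2 and 46.2 in P10, many-fold apart (-4.13, standard error 0.17, adjusted p = 4.2e-06 from limma). The receptors *Ccr1* (-1.95), *Ccr2* (-1.74) and *Cx3cr1* (-1.31), which bind chemokines, were lower, while *Cxcr4*, which holds progenitors in the marrow, had a difference of 0.05 (95% interval -0.21 to 0.31). Of the Fc and paired receptors 20 of 28 were lower and none higher, with a median of -2.36. *Lilrb4a*, an inhibitory receptor of myeloid cells, was at 131, 145 and 119 CPM in P11 and 1164, 925 and 796 in P10 (-2.85), and its near-identical neighbour *Lilr4b* had a difference of -3.54. *Cd300a*, another inhibitory receptor, was at 50.8, 56.1 and 49.3 CPM in P11 and 189, 195 and 189.7 in P10, with a standard error of 0.08 for a difference of -1.87.

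Cytokine receptors and adhesion molecules were lower in part. Of the growth factor and cytokine receptors 11 of 26 (42.3%, against 7.79% of all genes) were lower and none higher, with a median of -0.94. *Il13ra1*, a chain of the receptor of interleukins 4 and 13 (-2.53), *Il10ra*, of the interleukin 10 receptor (-2.26), *Tnfrsf1b*, a receptor of tumour necrosis factor (-1.76), and *Tgfbr2*, a receptor of TGF-beta (-1.52), were lower with *Csf1r*. The interleukin 3 receptor chain *Il3ra* (-0.10), *Il6st* (-0.08) and the interferon-gamma receptor gene *Ifngr1* (0.01) had differences near 0. Among 18 integrins and selectin ligands, *Itgax*, which encodes CD11c (-2.54), *Itgb7* (-1.93), *Itgb5* (-1.07) and *Itgal* (-1.05) were lower and *Pecam1*, an adhesion molecule, was higher (1.12). The shares were 22.2% lower and 5.56% higher, against 7.79% and 13.5% of all genes. *Itgal* was not called without P11 replicate 3, and after rescaling 6 genes of the list were lower and none higher. Without P10 replicate 3, 2 were higher. Of the phagocyte oxidase, which makes superoxide, *Cybb*, its catalytic subunit, was at 556, 529 and 549.9 CPM in P11 and 1988, 1972 and 1900.3 in P10 (-1.84). *Ncf4* was lower (-1.02), close to the 2-fold limit, and *Ncf1* was not called (-0.37), so that 2 of 6 subunits were lower, or 4 after rescaling or without replicate 3 of both gates. Among the lysosomal hydrolases 11 of 29 were lower and none higher, with a median of -0.69. *Ctsb*, cathepsin B (-1.71), *Ctss*, cathepsin S (-1.59), and *Asah1*, acid ceramidase (-1.12), were among them, whereas *Hexa* was not called (-0.19).

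Transcription factors of the myeloid lineage split into those that differed and those that did not. Of 28 tested, 17 were lower in P11, 1 was higher and 10 were not called, with a median of -1.30. *Nr4a1*, an orphan nuclear receptor that patrolling monocytes need, was at 4.75, 3.83 and 1.59 CPM in P11 and 62.8, 64.2 and 55.9 in P10. P10 stood far above P11, and also above P12 (8.63, 4.73 and 4.17 CPM) and P9 (12.7, 8.03 and 3.82 CPM), with a difference to P11 of -4.08 (standard error 0.31, adjusted p = 3.9e-05 from limma). *Klf4*, a factor of monocyte differentiation, was at 36.7, 37.9 and 34.1 CPM in P11 and 134, 144 and 136 in P10 (-1.92). *Klf2* (-2.26), *Klf6* (-1.81), *Irf5* (-1.96), *Rara* (-1.84) and *Maf*, a factor of macrophages (-3.54), were lower too. *Spi1* was at 102, 91.9 and 108 CPM in P11 and 146, 171 and 162 in P10, a difference of -0.66 (95% interval -0.89 to -0.44) within 2-fold. *Cebpa*, which commits progenitors to the myeloid lineage, had a difference of 0.01 (95% interval -0.22 to 0.25), and *Irf8*, which directs monocyte fate, of 0.29 (95% interval -0.05 to 0.63). *Zeb2* was likewise within 2-fold (-0.16, 95% interval -0.35 to 0.03). *Gfi1*, a repressor that favours granulocytes, was at 31.8, 30.3 and 76.4 CPM in P11 and 10.4, 12.4 and 44.8 in P10 and overlapped. *Vdr*, the vitamin D receptor (1.07), was the gene called higher, and no gene of the list was higher after rescaling, but 2 were without replicate 3 of both gates.

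Immediate early genes, which stimulation and cell handling induce within minutes, were lower in P11 in 12 of 17 cases and higher in none, with a median of -1.55. *Dusp1*, a phosphatase of MAP kinases, was at 2.82, 2.59 and 2.29 CPM in P11 and 23.4, 22.1 and 21.8 in P10, and each gate was tight (-2.91, standard error 0.16, adjusted p = 1e-05 from limma). *Zfp36*, which destabilises mRNA (-1.55), *Btg2*, which slows division (-1.61), and *Egr1* (-2.34), a zinc finger factor, were lower too. Interferon response genes were lower in 16 of 25 cases, with a median of -1.63. *Ifitm3*, which blocks virus entry, was at 36.0, 30.3 and 57.0 CPM in P11 and 279, 330.4 and 455 in P10 (-3.12). *Oas2*, a sensor of double-stranded RNA, was at 3.76, 4.45 and 8.85 CPM in P11 and 21.0, 24.3 and 54.2 in P10, and replicate 3 was the highest library in both (-2.40). P10 replicate 3 was over 2-fold above both other P10 libraries in 14 of the 25 genes, and without it 13 were lower, with a median of -1.02. Among 9 MHC class II genes, *H2-Eb1* (-3.05), *Cd74* (-2.69), *H2-Aa* (-2.53) and *H2-DMb2* (-1.15) were lower and *H2-Oa*, which restrains peptide loading, was higher (1.23). The shares were 44.4% lower and 11.1% higher, against 7.79% and 13.5% of all genes. *Cd74*, the invariant chain, was at 3.15, 5.29 and 5.27 CPM in P11 and 17.5, 22.3 and 79.0 in P10, again with its highest value in replicate 3 of P10, and the other P10 libraries were also above every P11 library.

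**Figure D4:**
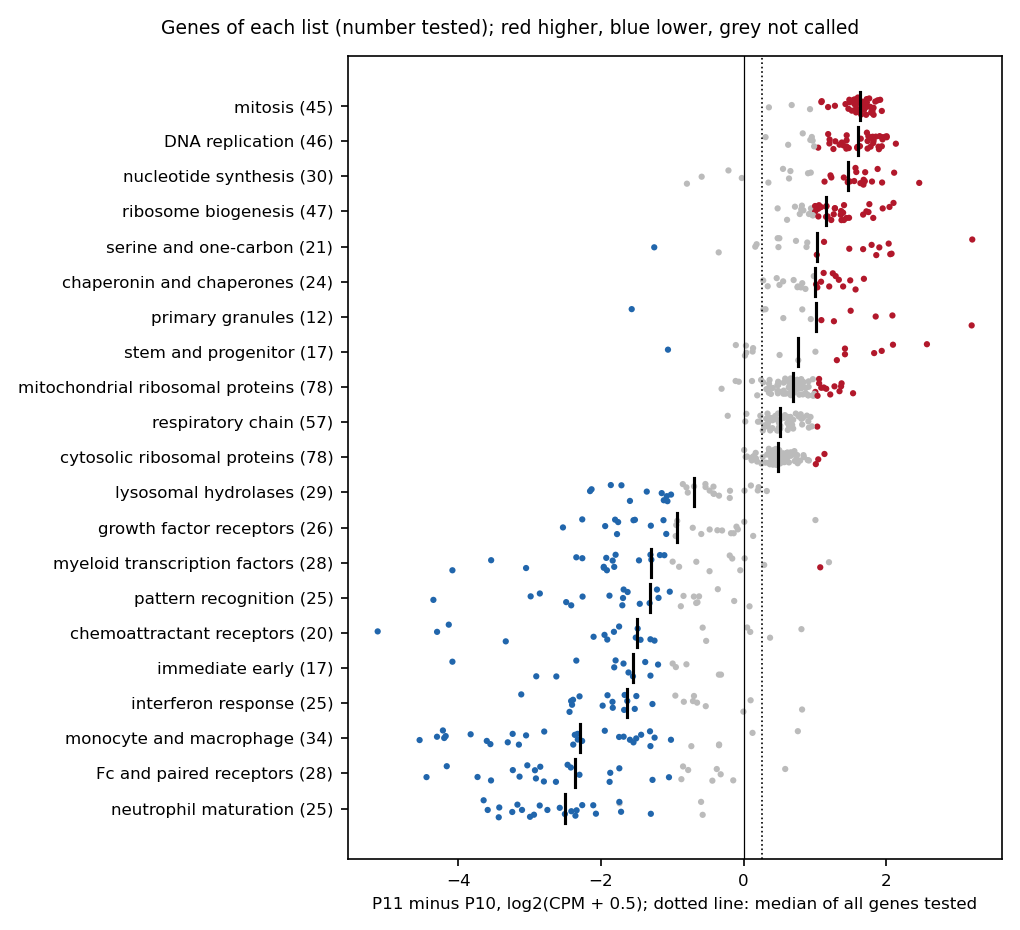
Differences between P11 and P10 on the log2(CPM + 0.5) scale (horizontal axis) for the tested genes of 21 lists (vertical axis, number of genes in brackets), with a bar at the median of each list and a dotted line at the median of all genes, 0.26. The genes of mitosis (median 1.63) and DNA replication (1.60) lie to the right, and those of monocytes and macrophages (-2.29), Fc and paired receptors (-2.36) and neutrophil maturation (-2.50) to the left.

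Genes of cell division were higher in P11. Of the mitosis list 42 of 45 tested genes were higher, none was lower and the median difference was 1.63. *Espl1*, separase, was at 96.6, 86.5 and 88.0 CPM in P11 and 21.5, 23.1 and 28.4 in P10, with no overlap (1.88, standard error 0.12, adjusted p = 2e-05 from limma). *Ccnb1*, cyclin B1 (1.82), *Bub1b*, of the spindle checkpoint (1.48), *Kif15*, a spindle motor (1.72), and *Cenpa*, the histone of centromeres (1.52), were higher too. The 3 genes not called were *Bub3* (0.67), *Racgap1* (0.93) and *Pttg1* (0.35). Of the DNA replication list 39 of 46 were higher and none lower, with a median of 1.60. *Pola1*, the catalytic subunit of the polymerase that starts DNA strands, was at 103, 98.5 and 99.9 CPM in P11 and 18.9, 22.5 and 26.8 in P10 (2.13, standard error 0.13, adjusted p = 1.6e-05 from limma). *Mcm3* (1.89) and *Mcm7* (1.95), of the replicative helicase, *Pole* (1.90), a polymerase, and *Fen1* (1.78), a flap nuclease, were higher. All 6 *Mcm* genes of the helicase ring differed by 1.64 to 1.95. P10 still held these transcripts, with *Mki67*, the proliferation antigen Ki-67, at 406, 381 and 755 CPM there and 1309, 1451 and 1696 in P11. After rescaling 39 mitosis genes and 36 replication genes were higher, and without P10 replicate 3 there were 42 replication genes (41 without replicate 3 of both gates).

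Of the G1 regulators 13 of 24 (54.2%) were higher and 1 (4.17%) was lower, against 13.5% and 7.79% of all genes. *Ccnd1*, cyclin D1, was at 67.7, 63.1 and 39.5 CPM in P11 and 12.7, 11.9 and 11.3 in P10 (2.16). *Ccnd2*, cyclin D2 (1.82), and the kinases *Cdk4* (1.47) and *Cdk6* (1.22) were higher. *Cdk4* was at 239, 241 and 231 CPM in P11 and 82.3, 85.0 and 88.2 in P10, tight in both. *Ccnd3*, cyclin D3, went the other way, at 202, 180.1 and 198 CPM in P11 and 357, 354 and 433 in P10, which missed the 2-fold limit (-0.97) and passed it after rescaling (-1.19). *E2f2* was the gene called lower (-1.59), while *E2f1* (1.13) and *E2f3* (1.16), of the same family of cell cycle factors, were higher. The inhibitors *Cdkn1a* (-0.10) and *Cdkn1b* (-0.18) were not called. After rescaling 8 G1 regulators were higher and 2 lower.

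The supply of nucleotides and folate-bound carbon followed the same direction. Of the nucleotide synthesis genes 20 of 30 were higher and none lower, with a median of 1.46. *Uck2*, a uridine-cytidine kinase, was at 137, 116 and 121 CPM in P11 and 27.8, 32.7 and 25.1 in P10 (2.11, standard error 0.12, adjusted p = 1.3e-05 from limma). *Cad*, which starts pyrimidine synthesis (1.88), *Impdh2*, of guanine nucleotide synthesis (1.64), *Paics*, of purine synthesis (1.47), and *Prps1*, which makes phosphoribosyl pyrophosphate (1.55), were higher. The salvage enzymes *Dck* (-0.03) and *Aprt* (-0.79) were not called, and 1 gene of the list was lower after rescaling. Of 21 genes of serine, folate and methionine metabolism 11 were higher and 1 was lower. *Shmt2*, the mitochondrial serine hydroxymethyltransferase, was at 148, 123 and 128 CPM in P11 and 29.0, 34.2 and 31.6 in P10, with no overlap (2.06, standard error 0.11, adjusted p = 8.7e-06 from limma). Its cytosolic partner *Shmt1* (2.07), *Mthfd1* (1.90), of the folate cycle, *Psat1* (1.79), which follows *Phgdh* in serine synthesis, and *Ahcy* (2.03), which clears S-adenosylhomocysteine, were higher. *Slc7a11*, the cystine transporter, was lower but under 4 CPM in all 6 libraries (-1.25).

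*Myc*, which drives growth genes, was at 148, 152 and 179 CPM in P11 and 38.0, 40.6 and 52.7 in P10. Replicate 3 was the highest of each gate, the gates were well apart, and the difference was 1.87 (standard error 0.14, adjusted p = 3.4e-05 from limma). It was the only gene called of 11 in the Myc network (2 were higher without P10 replicate 3 or without replicate 3 of both gates), and its antagonist *Mxd1* was not called (-0.75, 95% interval -0.996 to -0.49). Of the ribosome biogenesis genes 31 of 47 were higher and none lower, with a median of 1.16. *Dkc1*, which modifies ribosomal RNA, was at 118, 129 and 129.8 CPM in P11 and 30.3, 28.1 and 31.9 in P10 (2.04, standard error 0.09, adjusted p = 4.5e-06 from limma). *Gnl3*, nucleostemin (1.95), *Utp20* (1.76), *Nolc1* (1.72) and *Ncl*, nucleolin (1.48), were higher too. The proteins of the finished ribosome moved far less. Of 78 cytosolic ribosomal protein genes 3 were higher, with a median of 0.48, and for 47 the 95% interval lay within 2-fold. Without P10 replicate 3 there were 5 higher, and without replicate 3 of both gates 2. All 78 estimates were above 0, and after rescaling none was called and the median was 0.27. *Rpl3* had a difference of 0.75 with no overlap of the gates. *Rps2* was at 156, 115 and 187 CPM in P11 and 62.5, 72.8 and 68.9 in P10 and was called (1.13), but not after rescaling or without P11 replicate 3, and many ribosomal protein genes have near-identical pseudogenes.

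Other parts of protein synthesis lay between. Of the chaperones 12 of 24 were higher and none lower, with a median of 1.00, and 7 were higher after rescaling. *Hspa9*, mortalin of mitochondria, was at 225, 234 and 227 CPM in P11 and 75.7, 87.2 and 79.9 in P10 (1.49, standard error 0.08, adjusted p = 1.2e-05 from limma). *Cct3* (1.39), *Cct6a* (1.33) and *Tcp1* (1.20) are subunits of the chaperonin that folds actin and tubulin. *Tcp1* was not called after rescaling. Several of the next counts lie near the 13.5% of all genes that were higher. Of 23 tRNA synthetases 6 were higher (median 0.85), or 2 after rescaling, with *Eprs* at 1.25. Translation initiation factors numbered 5 higher of 35 (14.3%, median 0.69), or none after rescaling, with *Eif5a* at 1.18. Of 78 mitochondrial ribosomal protein genes 13 were higher (16.7%, median 0.70), or 6 after rescaling and 18 without P10 replicate 3, with *Mrpl12* at 1.37 and *Mrps5* at 1.27. Respiratory chain genes were hardly called, with 1 of 57 higher, *Atp5g1* (1.03), a median of 0.50 and 32 intervals within 2-fold. Without P10 replicate 3 that count was 6, and after rescaling it was 0. All these lists had medians above 0.26, and none of their genes was lower.

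Genes of glycolysis did not share a direction, with 2 of 23 higher, 4 lower and a median of 0.04. The shares were 8.70% and 17.4%, against 13.5% and 7.79% of all genes. Without P10 replicate 3, or replicate 3 of both gates, 1 was higher. *Slc16a1*, a monocarboxylate transporter, was at 61.2, 52.8 and 53.7 CPM in P11 and 12.2, 13.2 and 14.9 in P10 (2.02). *Slc16a3*, a transporter of the same family that exports lactate, was at 40.8, 36.5 and 32.1 CPM in P11 and 89.8, 84.9 and 80.6 in P10 (-1.22). The gates thus differed in opposite directions in these transporters. *Pfkfb4*, which sets the level of an activator of glycolysis, was lower (-1.95), and *Ldha* (0.74) and *Tpi1* (0.75) were not called. Among 14 apoptosis genes, *Bcl2*, which protects cells from death, was at 153, 139.6 and 119 CPM in P11 and 42.4, 37.5 and 41.7 in P10 (1.74, standard error 0.11, adjusted p = 1.9e-05 from limma). *Mcl1*, a protector of the same family, was at 180.2, 181 and 175 CPM in P11 and 409.9, 426 and 449.6 in P10 (-1.26, standard error 0.08, adjusted p = 1.6e-05 from limma). The pair differed in opposite directions, both without overlap. *Bcl2l12* was also higher (1.11), though not after rescaling, and *Bmf*, a promoter of death, lower (-1.52). Of the apoptosis genes 14.3% were thus higher and 14.3% lower, against 13.5% and 7.79% of all genes.

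Among 10 tested genes of surface proteins that the study names as drug targets in AML, 3 were lower and none higher. The share lower was 30%, against 7.79% of all genes. *Havcr2*, which encodes TIM-3, was at 1.33, 1.35 and 0.298 CPM in P11 and 17.0, 14.6 and 17.6 in P10, far apart (-3.60, standard error 0.34, adjusted p = 8.8e-05 from limma). *Cd33*, a sialic acid receptor, was at 38.7, 43.8 and 40.8 CPM in P11 and 249, 241 and 182 in P10, also with a wide gap (-2.42, standard error 0.13, adjusted p = 9.8e-06 from limma). *Sirpa*, the receptor of CD47, was lower (-1.31). After rescaling 5 of the 10 were lower. *Cd47* was at 798, 779 and 805 CPM in P11 and 486, 489 and 576 in P10, a difference of 0.62 (95% interval 0.40 to 0.85) within 2-fold. *Cd93* was at 961, 897 and 896 CPM in P11 and 929.5, 861 and 902 in P10, and its interval of -0.17 to 0.24 included 0. The paper reports CD47 and CD93 as overexpressed in P11. It set P11 against P9, P10 and P12 together, whereas the values here compare P11 with P10 alone.

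Most markers of other blood and marrow cells were low in both gates. T and NK cell genes summed to 1.75 to 12.1 CPM in P11 and 3.38 to 6.6 in P10, over 13 genes in the table of which only *Cd2* reached the level for a test. *Cd2* was lower in P11 (-1.79) and under 3 CPM throughout. Of the B cell genes *Cd79b* alone was tested, at 17.3, 18.8 and 16.2 CPM in P11 and 12.7, 8.35 and 10.6 in P10, while *Cd79a* was under 0.5 CPM. *Hbb-bs*, a globin of red cells, was at 24.8, 18.7 and 22.8 CPM in P11 and 37.1, 46.8 and 33.9 in P10 and was not called (-0.81). None of 6 erythroid genes was called, 1 was lower without P10 replicate 3 or without replicate 3 of both gates and 2 after rescaling. *Pf4*, a platelet protein, was under 0.2 CPM, and *Klf1*, *Cdh5*, *Cd209a* and *Zbtb46*, of erythroid, endothelial and dendritic cells, were under 1 CPM in all 6 libraries. *Mcpt8*, a protease of basophils, was called higher (1.13), at 14.2, 13.9 and 8.16 CPM in P11 and 5.75, 7.18 and 3.13 in P10. That call was lost after rescaling and without P10 replicate 3. Of 3 genes of basophils, mast cells and eosinophils it was the one called (2 were called without replicate 3 of both gates), and the megakaryocyte gene tested was not called. The dendritic cell list was not low, at 608, 569 and 285 CPM in P11 and 350.3, 358 and 211 in P10. Most of this lay in *Flt3*, given above, and *Tcf4*, a factor of plasmacytoid dendritic cells that progenitors also express, at 141, 149 and 115 CPM in P11 and 115, 105 and 91.5 in P10 (0.38, not called). *Itgax* was lower and 5 of the 6 dendritic genes tested were not called. Of 4 stromal and endothelial genes *Pdgfrb*, a receptor of platelet-derived growth factor, was higher (1.34) and *Acta2*, smooth muscle actin, lower (-1.92), and *Acta2* was under 4 CPM. Without replicate 3 of both gates 2 genes of that list were lower. In the main fit the shares were 25% higher and 25% lower of only 4 genes, against 13.5% and 7.79% of all genes.

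The P9 and P12 libraries, which share none with P11 or P10, were used to see where else the genes that differ between P11 and P10 were high. P9 and P12 differ in CD9, cKit and CD48 besides Mac1, and this comparison was added after the data were seen. Of all 12594 genes 9.12% were higher in P9 than in P12 and 44.9% were higher in P12. These genes were chosen by their levels in P11 and P10, so that others were left out even where high in P9. P9 and P12 were compared without rescaling. The neutrophil maturation list held 146244 to 158143 CPM in P9 and 3165 to 10548 in P12. How far the shares here and below depend on these points was not tested. Among the 1702 genes higher in P11 than in P10, 1420 (83.4%) were higher in P12 and 31 were higher in P9. These 1420 genes were 25.1% of the genes higher in P12. Of the 981 genes lower in P11, 372 (37.9%) were higher in P9 and 264 (26.9%) were higher in P12, which are 32.4% and 4.67% of the respective lists. The rest of the 981 genes were called in neither direction between P9 and P12. Higher here means relative to the other of P9 and P12. Without P12 replicate 3 the counts were 410 and 233, and 1448 for the genes higher in P11.

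The lists differed in this. All 22 neutrophil maturation genes lower in P11 were higher in P9 than in P12, and none was higher in P12. Of the 29 monocyte and macrophage genes lower in P11, 4 were higher in P9 and 16 were higher in P12. *Csf1r* was at 22.1, 28.2 and 28.9 CPM in P9 and 353, 367 and 680.1 in P12, below both P10 (825, 869.9 and 831) and, in P9, also P11. *Ctss* was at 13.9, 14.6 and 12.2 CPM in P9 and 531, 559.9 and 683 in P10. *Vcan* was at 3.30, 3.08 and 6.23 CPM in P9 and 512, 466 and 393 in P10. *Thbs1* went the other way, at 3147, 2949 and 2118 CPM in P9 and 249, 264 and 233 in P10. Of the Fc and paired receptors 17 of 20 were higher in P9, and of the lysosomal hydrolases 2 of 11 were higher in P9 and 8 in P12. Of the genes higher in P11, 33 of 42 mitosis genes, 38 of 39 DNA replication genes and 29 of 31 ribosome biogenesis genes were higher in P12 than in P9. These are 78.6%, 97.4% and 93.5%, against 83.4% of all genes higher in P11.

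**Figure D5:**
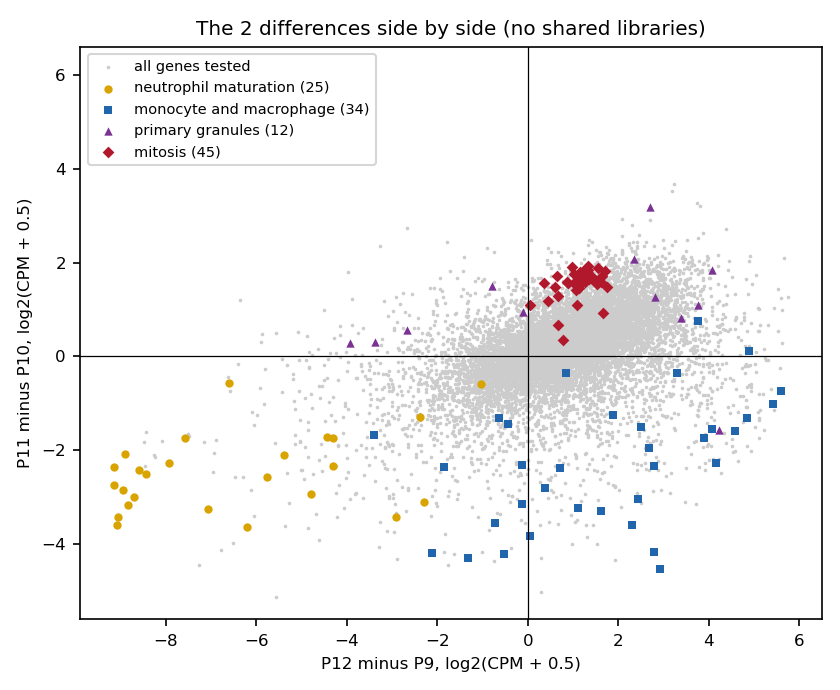
Difference between P11 and P10 (vertical axis) against the difference between P12 and P9 (horizontal axis), both on the log2(CPM + 0.5) scale, for every gene tested (grey) and 4 lists (colours and symbols). The 25 neutrophil maturation genes lie at the lower left, whereas monocyte and macrophage genes lower in P11 spread over both sides, with 16 higher in P12 and 4 higher in P9.

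Among genes that code for no protein, 26 of 277 lincRNAs were higher and 28 lower in P11, and of 236 antisense genes 16 were higher and 22 lower. The shares were 9.39% and 10.1% of the lincRNAs and 6.78% and 9.32% of the antisense genes, against 13.5% and 7.79% of all genes. Those with the largest differences were named after their values were seen. *4933440M02Rik*, a lincRNA on chromosome 7 from 125284025 to 125349788 of mm10, was at 68.3, 63.5 and 49.1 CPM in P11 and 5.92, 5.87 and 2.07 in P10 (3.67, standard error 0.34, adjusted p = 8.7e-05 from limma), and no gene of any kind had a larger difference upwards. *AI506816*, a processed transcript, was at 467, 418 and 449 CPM in P11 and 93.4, 102 and 105 in P10, tight in both gates (2.15). *Gm11505*, an antisense gene that lies within *Mpo*, was higher too (2.93), but the sources differ on whether the kit kept the strand, so that its reads cannot be told from those of *Mpo*. *Mir22hg*, the host transcript of miR-22, was at 2.49, 3.66 and 1.69 CPM in P11 and 19.5, 18.8 and 9.23 in P10 and was lower (-2.37).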

How the data were processed

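RNA of 12 libraries, 3 from each of 4 sorted sub-populations, was sequenced by the authors as single reads, aligned with STAR 2.5.3a to mm10 and quantified with the Partek E/M algorithm. The deposited table gives CPM (alignments of a gene scaled to those of the library) with 0.0001 added by the authors to each value, which was subtracted again. No column of values was left out. Library totals of alignments were estimated from the spacing of low values. At these totals only 76.6 to 82.8% of low values were whole numbers of alignments (within 0.1). Whole reads were therefore not recovered and no count test was run.

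Genes that reached 1 CPM in at least 3 of the 6 P11 and P10 libraries were tested with limma 3.58.1 (R 4.3.3) on log2(CPM + 0.5), with a variance trend and Benjamini-Hochberg adjustment over all 12594 genes. Calls needed an adjusted p under 0.1 and more than 2-fold. The script was tested on simulated data. The sub-populations, the members and the 40 gene lists (1007 genes, 886 of them tested) were chosen with earlier results of these data known. Genes named were those of the sort and of ML23, the 15 largest protein-coding differences per direction (called, a mean of 10 CPM or more in the higher gate, no overlap), and up to 5 members of each list by adjusted p. Others were named after their values were seen, and some genes that the rule names are not reported here.

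Deviations from the gate means correlated at 0.488, 0.184 and 0.557 between P11 and P10 libraries of the same number (replicates 1, 2 and 3). P11 replicate 1 with P10 replicate 2 gave 0.294, and P11 replicate 2 with P10 replicate 1 gave 0.154. Pairs of a replicate 3 with another number gave -0.517 to -0.219. Replicate 3 thus stood apart, whereas replicates 1 and 2 were less clearly matched. The labels do not tie the numbers to a mouse. The main fit was unpaired, and pairing by number was tried as an alternative. Alternatives were other pseudocounts, filters, scaling by median ratios, fits with all libraries or a replicate block, each library left out, protein-coding genes alone, a stricter threshold, arithmetic folds and no trend. Leaving out replicate 3 of both gates, the counts per list under these settings and the comparison of P9 with P12 were added after the data were seen. Gene ends are the table's stop minus 1, since most stops lay 1 base past the annotated end.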

Additional observations from a re-analysis of the deposited data

How the results depend on the processing

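The counts of 1702 genes higher and 981 lower in P11 stayed within 1.5 times under the alternatives tried, except that libraries rescaled by median ratio gave 1117 higher. With the replicate number as a block, which pairs the libraries, 1729 genes were higher and 1002 lower, and among the 204 genes named by rule only *Flt3* (1.01) and *Hdc* (1.21) gained a call by the pairing while none lost it. Leaving out each library in turn gave 1669 to 1871 genes higher and 944 to 1046 lower. Without P10 replicate 3 the fit called 1871 and 1046 genes, and 2487 of the 2683 calls (92.7%) were among them. A pseudocount of 2 gave 1188 and 775 genes, one of 0.1 gave 1904 and 1049, and a filter of 10 CPM 1170 and 661. Of the 2683 calls, 78.2% were kept after rescaling and 73.2% with a pseudocount of 2. The filter of 10 CPM, under which 8939 genes were tested, kept 68.2%. Over all alternatives of the 204 named genes, 3566 of 3645 values kept their call, 41 gained one, 38 lost one and none changed direction. Most of these genes were named for large differences or small adjusted p-values in the same fit, so that their stability was partly fixed in advance. Rescaling, which moved the median difference by -0.20, cost 13 of the named genes the call and gave 10 a new one. For genes near 1 CPM a value rests, by the estimated totals, on 17.8 to 21.3 alignments. Each library came from 100 cells through 14 cycles of cDNA amplification and 13 of library PCR, so that alignments are not counts of molecules. How far depth or input limits these genes was not tested.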
